A study of Ictidomys tridecemlineatus with 15 samples.

Results

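Proteasome subunits and assembly factors were examined here in nascent transcription of the liver of 13-lined ground squirrels, a seasonal hibernator. Members were taken by name, as every counted unit with at least 1 gene name that begins with Psma, Psmb, Psmc, Psmd, Psme, Psmf or Psmg followed by a digit. The rule found 37 of the 6324 units in the table, 20 of them named for 1 gene and 17 for several genes whose annotations overlapped and were merged. Of the 20 single-gene units, 9 encode subunits of the core particle, 8 encode subunits of the regulatory particle, 2 encode assembly factors (Psmd5 and Psmd9) and 1 encodes an inhibitor (Psmf1). Counts of a merged unit cannot be divided among its genes, so merged units are described apart.

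Proteasomes degrade proteins that carry chains of ubiquitin. The core particle is a barrel of stacked rings, with alpha rings at its ends that gate the entrance and beta rings between them that hold the catalytic sites. The regulatory particle caps the barrel. Its base holds a ring of ATPases that unfold substrates and push them inward, and its lid holds the enzyme that cuts ubiquitin off. Dedicated chaperones assemble both particles, the protein inhibitor Psmf1 binds the core particle, and interferon can exchange some catalytic subunits and caps for inducible forms. In the liver, a tissue that makes and turns over much protein, they act in hepatocytes and the other cell types alike.

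Global run-on sequencing (GRO-seq) counts RNA made by polymerases already engaged on DNA, in isolated nuclei that are allowed to extend their transcripts in vitro. It reports engaged polymerase, called nascent transcription here, and not the rate of transcription in the animal or the amount of mRNA or protein. The paper cites earlier work in which liver transcription nearly stopped in torpor. It proposes that elongation goes on slowly there, and states that scaling by library size hides changes in total activity. All animals were female, laboratory-housed and from 1 breeding colony, and nuclei from frozen liver were run on under the same conditions in every state. The states were SA (summer active, homeothermic, before hibernation; 3 animals), IBA (rewarmed between bouts of torpor; 3 animals), Ent (cooling into torpor; 3 animals), ET (early in a torpor bout, cold; 3 animals) and LT (late in a torpor bout, cold; 2 animals, replicates 1 and 3). LT replicate 2 was not analysed here. Below, "warm" stands for SA and IBA (6 libraries), "cold" for ET and LT (5 libraries), and Ent lies between them.

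Each library held between 3713883 and 8884763 counts, and single-gene proteasome units took 0.123% to 0.232% of them. Values are CPM, counts scaled to a common library size of 1000000 by the TMM method, which expresses a unit relative to the other units of its library. The smallest count of a single-gene member in any library was 42, in Psmb4, so that all 20 were measured in every library. The label liver was checked against hepatocyte markers, of which 6 of 12 were summed as single-gene units. Tf, which names both a single-gene unit and a merged unit, was left out of the sum. The summed level of the 6 ran from 8770 to 20208 CPM in warm libraries and from 3630 to 6979 in cold ones. In the cold, 4 of the 6 were called lower. Endothelial markers with a unit (3 of 7) summed to between 186 and 241 CPM in warm libraries and between 124 and 203 in cold ones, the 1 cholangiocyte marker with a unit (Sox9, of 5 listed) ran from 16.5 to 41.0 and from 7.07 to 18.1 CPM, and the lists for Kupffer cells and leukocytes and for stellate cells had no single-gene unit. The part of these shifts in the results below was not tested, and in whole liver a change in the share of a cell type and a change within cells cannot be told apart. The season of collection differed between states as well. SA replicate 1, Ent replicates 1 and 2 and both LT libraries came from the first season, all ET libraries from the second, and the remaining SA, IBA and Ent libraries from the third, so that ET cannot be told apart from its season.

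The 20 single-gene units together took a larger share of nascent transcription in cold animals, and 7 of them were called higher. Their summed level, relative to the other units of each library, ran from 1327 to 1549 CPM in SA, from 1308 to 1381 in IBA, from 1484 to 1738 in Ent, from 2136 to 2254 in ET and from 2052 to 2108 in LT. Warm and cold libraries did not overlap in this sum, and the Ent libraries overlapped only with SA. In the contrast of cold against warm (the mean of ET and LT minus the mean of SA and IBA on the log2 scale), 7 of the 20 units were called higher and 0 lower at an adjusted p of 0.001. Among all 4705 single-gene units, 18.3% were called higher and 18.7% lower, together 37.0%, so that the share of members called was near the background and the members' calls were all in 1 direction. The 7 were Psmb3, Psmc1, Psmd4, Psmb2, Psmd12, Psmb1 and Psmd6. At the looser threshold of 0.05, 14 members were higher and 1, Psma5, lower, beside 30.1% and 35.0% of all single-gene units, and 15 of the 20 had an unadjusted p under 0.05, beside 68.3%. The fitted log2 fold change was positive in 18 members, with a median of 0.50, whereas the median over all single-gene units was -0.07. In 10 members every cold library lay above every warm library and in 0 the reverse, compared with 20.3% and 20.2% of all single-gene units.

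CPM are relative to the other units of a library, and 1 scaling moved that reference. With library sizes set to the uniquely mapped reads, the median of all single-gene units moved from -0.07 to 0.16 and the share of higher units among all called single-gene units from 49.4% to 66.6%. Under that scaling, which adds nearly the same amount to every unit, 13 members were called higher and 0 lower, beside 25.6% and 12.8% of all single-gene units.

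When the 5 states were tested together, 8 members were called, the 7 named above and Psmb4, beside 26.4% of all single-gene units, and 15 were called at 0.05, beside 63.3%. The plot of CPM by state shows the individual libraries of these 8.

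**Figure D1:**
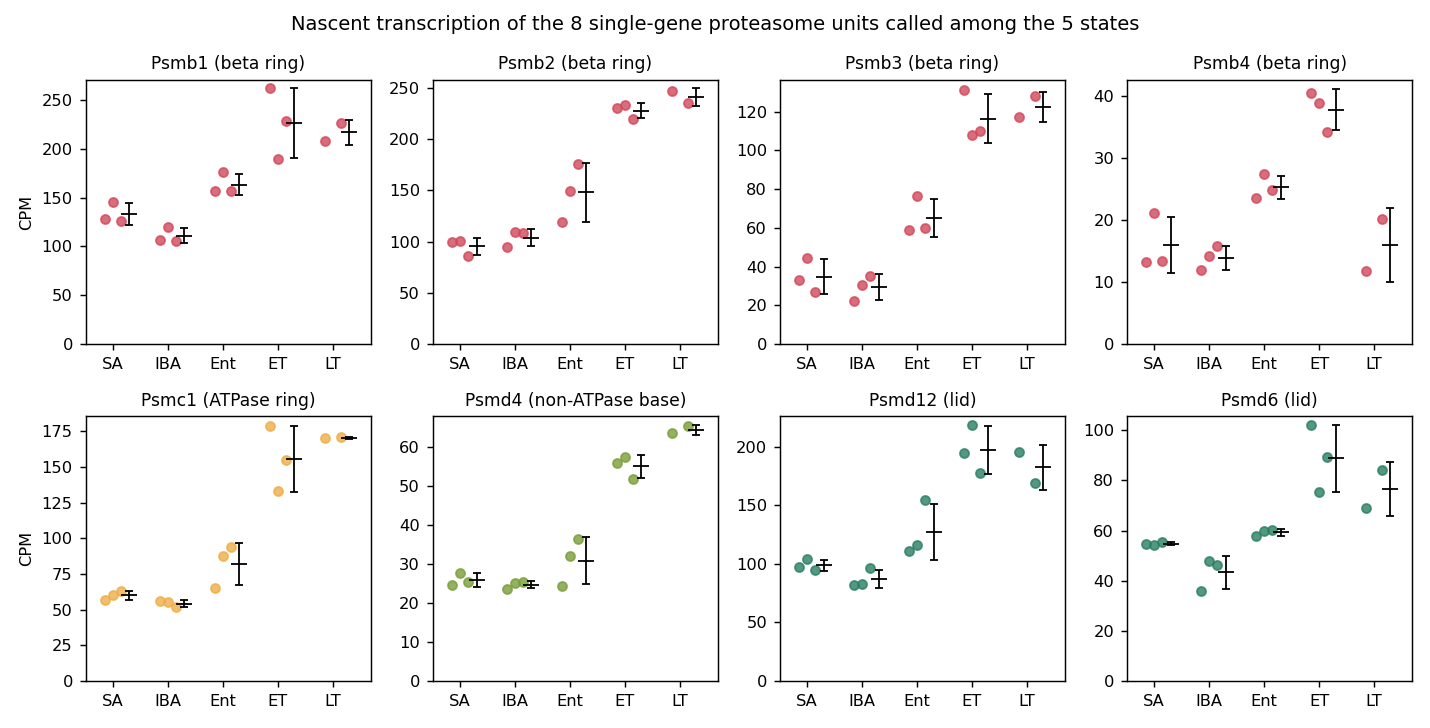
Nascent transcription in CPM (vertical axes, starting at 0) by state (horizontal axes) of the 8 single-gene proteasome units called among the 5 states. Each point is the library of 1 animal, and the bar beside the points gives the mean and SD; in 7 units all ET and LT points lie above all SA and IBA points, while Psmb4 is high in ET (34.2 to 40.5 CPM) and back at the warm level in LT (11.8 and 20.2 CPM).

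Among single-gene units, core and regulatory particles had nearly the same median. In cold against warm it was 0.62 in the core particle and 0.64 in the regulatory particle, as log2 fold changes. Among merged units, described further on, the medians were unlike, at 0.70 over 4 core units and 0.13 over 7 regulatory units. Of the single-gene core units 3 of 9 were called higher and of the single-gene regulatory units 4 of 8, beside 18.3% of all single-gene units. The core particle units summed to between 520 and 637 CPM in warm libraries and to between 866 and 993 in cold ones. Regulatory particle units summed to between 628 and 768 CPM in warm libraries and to between 1010 and 1065 in cold ones. The core median depended on which cold state was used. It was 0.60 with ET alone as cold and 0.10 with LT alone, whereas the regulatory median was 0.77 and 0.55 (settings chosen after seeing the data).

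Inside the core particle, the single-gene units of the alpha ring had lower fold changes than those of the beta ring. Of the 5 alpha ring units with a single gene name, 0 were called in cold against warm by edgeR, beside 37.0% of all single-gene units. By limma-voom 0 were called, and 2 had an unadjusted p under 0.05 by edgeR, beside 68.3%. Psma7 was called higher under 3 of its 26 alternative settings. The median log2 fold change of the 5 was 0.13. Of the 4 beta ring units 3 were called higher, beside 18.3% of all single-gene units, with a median of 1.05. The difference between the rings was not tested, since both are small groups of members chosen by name. Among merged units, described further on, those with an alpha subunit (log2 fold changes of 0.68 and 0.73) were as high as those with a beta subunit (0.73 and 0.54).

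Psma5, an alpha ring subunit, had the lowest fold change of the 20 single-gene units. It measured 52.8, 77.6 and 61.2 CPM in SA, 56.6, 52.7 and 59.4 in IBA, 61.9, 52.3 and 53.1 in Ent, 42.3, 52.8 and 46.6 in ET, and 39.0 and 45.7 in LT. The cold libraries sat at the bottom of the range, and ET replicate 2 overlapped with the lowest warm libraries. The log2 fold change was -0.42 (95% interval -0.66 to -0.18; edgeR, Benjamini-Hochberg adjusted p = 0.0082), which did not pass 0.001. Psma7 moved the other way, from 46.3 to 60.2 CPM in warm libraries and from 66.0 to 98.4 in cold ones without overlap, at a log2 fold change of 0.62 (edgeR, adjusted p = 0.0016). Psma1, Psma3 and Psma6 had log2 fold changes of 0.18, 0.13 and -0.04 with adjusted p of 0.26, 0.35 and 0.70 from the same fit, and their warm and cold libraries overlapped. The sign for Psma6 turned to 0.18 with library sizes from uniquely mapped reads.

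Psmb3, a non-catalytic subunit of the beta ring, had the highest fold change of the 20. It measured 33.0, 44.6 and 26.9 CPM in SA, 22.2, 30.7 and 35.4 in IBA, 59.0, 76.5 and 59.7 in Ent, 131, 108 and 110 in ET, and 117 and 128 in LT. Warm, Ent and cold libraries formed separate ranges. Its cold level was 3.73 times the warm level, a log2 fold change of 1.90 (95% interval 1.59 to 2.20; edgeR, adjusted p = 7.5e-07). The unit lies on Itri7 from 22903903 to 22919647 on the minus strand of the HiC_Itri_2 assembly, and, as in every unit, the first 500 nt of the gene are left out.

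Psmb2, another structural beta subunit, measured 99.5, 101 and 85.9 CPM in SA, 94.3, 109 and 108 in IBA, 119, 149 and 176 in Ent, 230, 233 and 219 in ET, and 247 and 235 in LT. Here too the Ent libraries fell between the warm and the cold ones without overlap. The log2 fold change was 1.23 (95% interval 1.03 to 1.43; edgeR, adjusted p = 9.6e-07). Psmb1, also a structural subunit of the ring, measured 128, 146 and 126 CPM in SA, 107, 120 and 106 in IBA, 157, 176 and 157 in Ent, 262, 190 and 228 in ET, and 208 and 226 in LT. Its 3 groups of libraries were again separate, and the log2 fold change was 0.87 (95% interval 0.68 to 1.06; edgeR, adjusted p = 7.8e-06). Psmb2 lies on Itri11 (52316475 to 52358255, minus strand) and Psmb1 on Itri8 (151224941 to 151249525, plus strand).

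Psmb4, the remaining beta ring unit, followed another course. It measured 13.3, 21.2 and 13.5 CPM in SA, 11.9, 14.2 and 15.8 in IBA, 23.6, 27.4 and 24.9 in Ent, 40.5, 38.9 and 34.2 in ET, and 11.8 and 20.2 in LT. Ent and ET libraries exceeded all warm ones, whereas LT replicate 1 fell just beneath the lowest warm library and LT replicate 3 within the warm range. Among the 5 states it was called (edgeR, adjusted p = 7.1e-04), and from ET to LT the log2 fold change was -1.24 (SE 0.27; edgeR, adjusted p = 0.073), which missed the threshold. In cold against warm, an average over ET and LT, the value of 0.72 (edgeR, adjusted p = 0.0031) averaged these unlike levels. With ET alone as cold it was 1.34 (edgeR, adjusted p = 8.8e-05). Psmb4 was the shortest single-gene member at 4.98 kb, with 42 to 275 counts per library, and lies on Itri11 (22580905 to 22585880, plus strand).

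**Figure D2:**
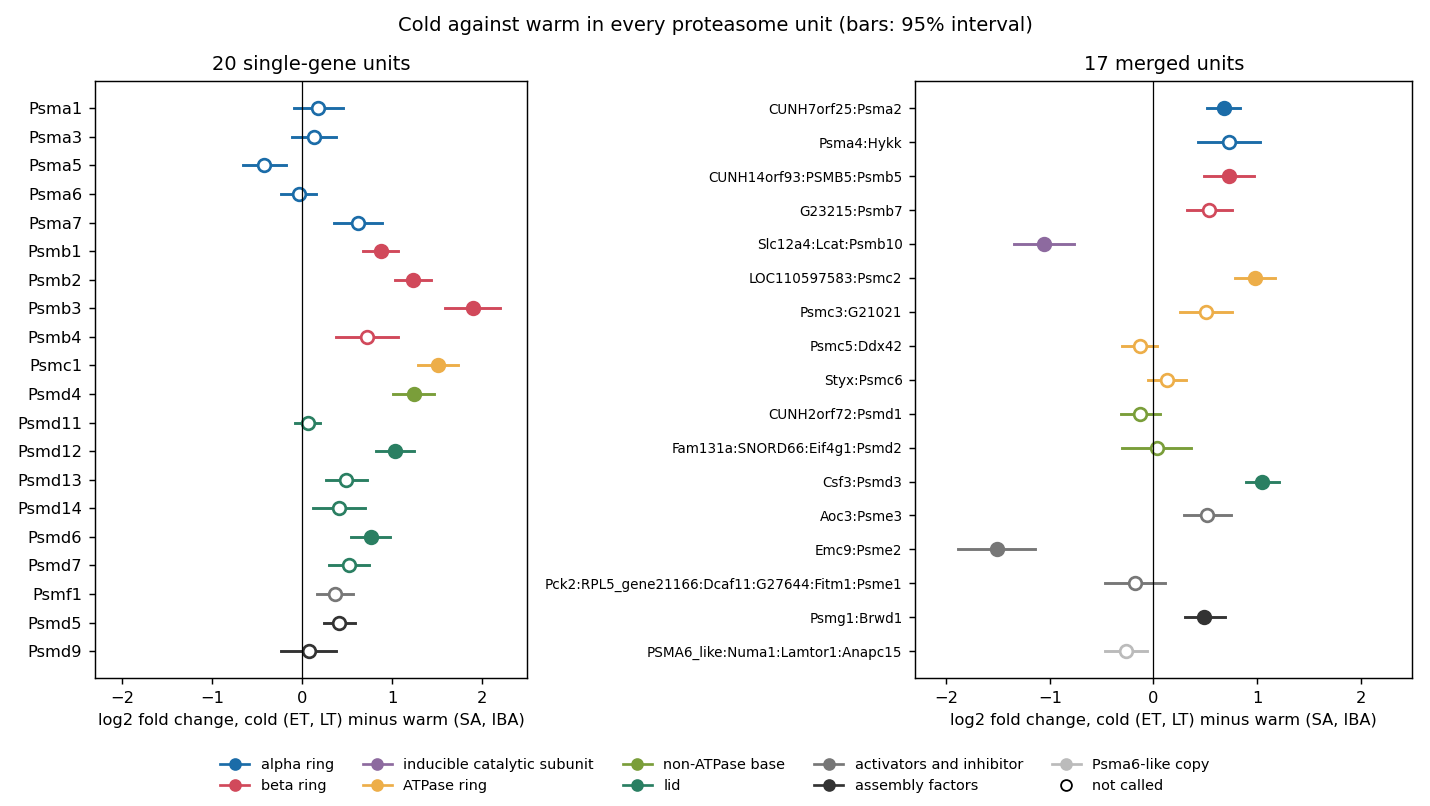
Log2 fold change of cold (ET, LT) against warm (SA, IBA) on the horizontal axis for the 20 single-gene units (left) and the 17 merged units (right), coloured by role, with 95% intervals. Filled points were called at an adjusted p of 0.001: 7 single-gene units, all above 0, and 7 merged units, 5 above and 2 below 0.

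In the base of the regulatory particle, both single-gene units were called higher in the cold. Psmc1, an ATPase of the unfolding ring, measured 56.9, 60.0 and 63.2 CPM in SA, 56.0, 55.0 and 51.7 in IBA, 65.2, 87.2 and 93.7 in Ent, 179, 133 and 155 in ET, and 170 and 171 in LT. Warm libraries were within a narrow range and every cold library was at 133 CPM or above. The log2 fold change was 1.51 (95% interval 1.29 to 1.73; edgeR, adjusted p = 4.5e-07), the smallest adjusted p of the 20. Psmd4, a receptor for ubiquitin chains, measured 24.6, 27.8 and 25.3 CPM in SA, 23.6, 25.1 and 25.4 in IBA, 24.3, 32.0 and 36.3 in Ent, 56.0, 57.4 and 51.7 in ET, and 63.6 and 65.4 in LT. Ent replicate 1 lay among the warm libraries and the other Ent libraries above them. The log2 fold change of Psmd4 was 1.24 (95% interval 1.01 to 1.46; edgeR, adjusted p = 2.0e-06). Psmc1 lies on Itri5 (14591617 to 14612856, minus strand) and Psmd4 on Itri11 (22427502 to 22440045, plus strand).

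Of the 6 lid units, 2 were called higher, beside 18.3% of all single-gene units, and the median log2 fold change was 0.50. At the threshold of 0.05, 5 lid units were higher and 0 lower, beside 30.1% and 35.0% of all single-gene units. Psmd12, a scaffold subunit of the lid, measured 97.4, 104 and 94.9 CPM in SA, 82.1, 82.8 and 96.1 in IBA, 111, 116 and 155 in Ent, 195, 219 and 178 in ET, and 196 and 169 in LT. The warm, Ent and cold ranges did not overlap, and the log2 fold change was 1.03 (95% interval 0.82 to 1.24; edgeR, adjusted p = 4.7e-06). Psmd6, also a scaffold subunit, measured 54.7, 54.2 and 55.4 CPM in SA, 35.8, 47.9 and 46.3 in IBA, 57.8, 59.7 and 60.3 in Ent, 102, 75.2 and 89.2 in ET, and 69.1 and 84.1 in LT. IBA was below SA in every library, although the step from SA to IBA did not pass the test (edgeR, adjusted p = 0.22). In cold against warm the log2 fold change of Psmd6 was 0.76 (95% interval 0.54 to 0.98; edgeR, adjusted p = 6.9e-05). Psmd12 lies on Itri7 (13400648 to 13436875, minus strand) and Psmd6 on Itri2 (164014543 to 164029181, plus strand).

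The other lid units changed less. Psmd7 and Psmd14 encode the paired subunits of the deubiquitinating module, of which Psmd14 is the active enzyme. Their log2 fold changes were 0.52 and 0.41 (edgeR, adjusted p = 0.0013 and 0.029), and cold and warm libraries overlapped in both. Psmd14 had 1 warm library, SA replicate 2, at 232 CPM, above every other library. Without it the value for Psmd14 was 0.56 (edgeR, adjusted p = 6.3e-04), past the threshold. Psmd13, a scaffold subunit, stood at 0.49 (edgeR, adjusted p = 0.0024). Psmd11, a subunit that links lid and base, had the smallest absolute value of the lid at 0.06 (95% interval -0.08 to 0.20; edgeR, adjusted p = 0.45), with 193 to 227 CPM in warm and 205 to 240 CPM in cold libraries. It was lowest in Ent, at 166, 176 and 167 CPM, beneath every other library.

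Outside both particles, the values were small. Psmf1, the inhibitor, had a log2 fold change of 0.36 (edgeR, adjusted p = 0.0069), with 53.7 to 65.1 CPM in warm and 66.7 to 80.8 in cold libraries. Psmd5, a chaperone that assembles the base, had 0.41 (edgeR, adjusted p = 0.0012), with 54.3 to 65.9 CPM and 72.3 to 84.8 CPM. In both the ranges were separate although neither value passed 0.001. Psmd9, another base chaperone, had 0.07 (edgeR, adjusted p = 0.69), with overlapping libraries.

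Across the sequence of states, the shift was divided between 2 steps, from IBA to Ent and from Ent to ET. No member was called by edgeR at 0.001 in any sequential step. Of all single-gene units, 0.0213% were called between SA and IBA, 0.0425% between IBA and Ent, 2.30% between Ent and ET and 0% between ET and LT. At an unadjusted p under 0.05 the counts in these steps were 3, 9, 12 and 3 of 20, beside 23.4%, 33.4%, 41.1% and 9.27% of all single-gene units, so that the first was beneath the background share. By DESeq2 at 0.001 they were 0, 3, 7 and 1, beside 3.72%, 7.00%, 15.4% and 0.702%. At 0.05, 7 members were higher in Ent than in IBA and 1 lower, beside 8.57% and 8.12% of all single-gene units, and 10 were higher in ET than in Ent, beside 15.4%. The 7 higher in Ent were the 4 beta ring units, Psmc1, Psmd12 and Psmd13, and the lower one was Psmd11 (log2 fold change -0.36, adjusted p = 0.026 by edgeR). From Ent to ET, Psmc1 had the smallest adjusted p of the members (log2 fold change 0.93, edgeR adjusted p = 0.0012). Psmb3 had the largest log2 step from IBA to Ent, 1.13 (edgeR, adjusted p = 0.0055).

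How much of the difference between warm and cold was present in Ent varied among the 7 called members. On the log2 scale the Ent mean had covered 53.9% of it in Psmb3, 49.1% in Psmb1, 46.3% in Psmb2, 44.3% in Psmd12, 37.3% in Psmd6, 34.6% in Psmc1 and 23.4% in Psmd4. The 3 beta ring units thus led this order of single-gene members. The median of the 7 was 44.3%, beside 41.7% over the 859 single-gene units called higher, with Ent means of 3 libraries behind each value. Merged units called higher, described further on, did not keep that order. LOC110597583:Psmc2 (65.1%) and Csf3:Psmd3 (57.4%), with regulatory particle genes, stood highest. CUNH7orf25:Psma2 was at 45.6%, Psmg1:Brwd1 at 28.2% and CUNH14orf93:PSMB5:Psmb5, with a beta subunit, at -1.03%.

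From IBA to LT, both in the hibernation season, 6 members were called higher and 0 lower, beside 9.46% of all single-gene units called higher. They were Psmb3 (log2 fold change 2.05), Psmc1 (1.65), Psmd4 (1.38), Psmb2 (1.21), Psmd12 (1.07) and Psmb1 (0.97), with edgeR adjusted p from 1.8e-05 to 2.0e-04. The comparison rests on 2 LT libraries, and without LT replicate 1 only 3 members, Psmb3, Psmc1 and Psmd4, were called. With season of collection as an additive term 4 were called, namely Psmc1, Psmd4, Psmb2 and Psmd12. The share of all single-gene units called under these settings is not given here, so the lower counts are not read as a result about the members. Within the first season alone, the mean of both LT libraries lay above SA replicate 1 in 18 of the 20 members, beside 49.0% of all single-gene units. The log2 ratio ran from -0.32 (Psma5) to 1.89 (Psmb3), with values near 0 in Psma1 (0.01) and Psmd7 (0.08) and a median of 0.36 (-0.02 over all single-gene units). These libraries are among those of the contrast above, and the comparison holds 1 SA library and was not tested.

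**Figure D3:**
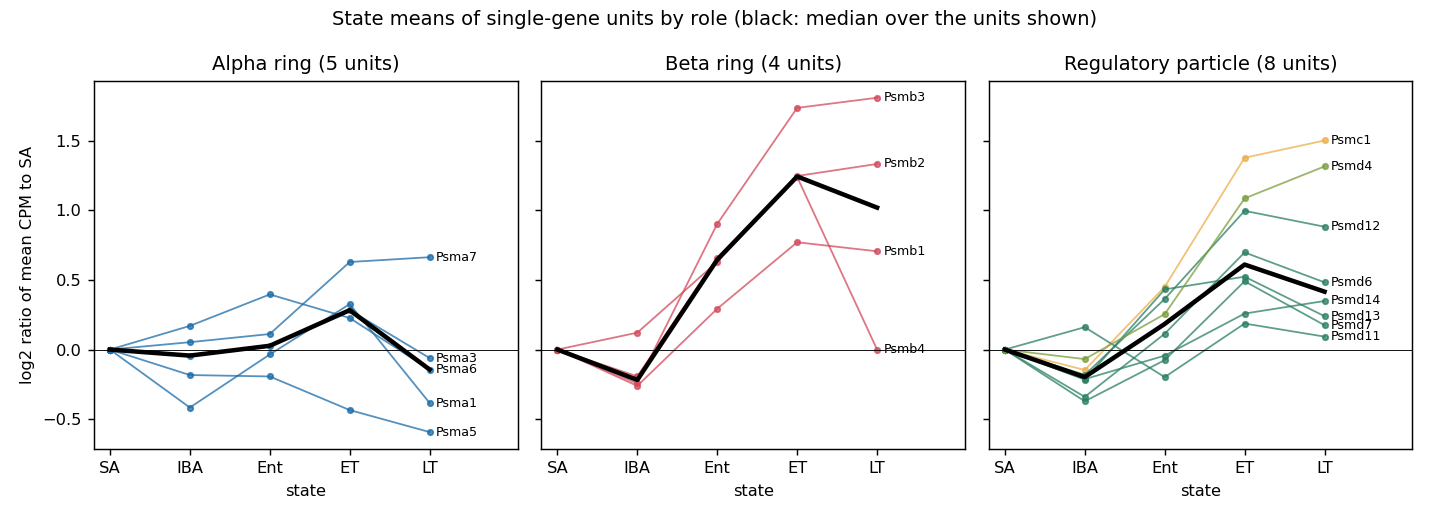
Log2 ratio of the mean CPM of each state to that of SA (vertical axis) over the 5 states (horizontal axis), for single-gene units of the alpha ring, the beta ring and the regulatory particle; thin lines are units and the black line is their median. The 4 beta ring units climb from IBA through Ent to ET, 7 of the 8 regulatory particle units are higher in Ent than in IBA (Psmd11 is lower), Psmb4 returns to its SA level in LT, and the alpha ring units scatter on both sides of 0.

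From ET to LT 0 of 20 members were called by edgeR at 0.001 or at 0.05, and the values of the 2 states are given side by side. Relative to SA, the median of the core particle units was 0.30 in Ent, 0.63 in ET and -0.00 in LT on the log2 scale, and that of the regulatory particle was 0.18, 0.61 and 0.42. Over all single-gene units it was -0.01, -0.03 and -0.06. Psma1 had 36.1, 37.9 and 35.6 CPM in ET, above 21.6 and 23.0 in LT without overlap, and Psma6 had 63.3, 80.7 and 74.5 CPM in ET against 57.1 and 55.7 in LT. Neither passed the test from ET to LT (log2 fold changes of -0.71 and -0.37, edgeR adjusted p = 0.23 and 0.47), and these examples were chosen after their values were seen. Psmb3, Psmb2, Psmc1 and Psmd4 had log2 steps between 0.07 and 0.23 from ET to LT, none of which passed.

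Because subunits enter the complex in fixed proportions, their levels were also compared per unit length. In warm animals the mean level of the 20 units spanned from 1.47 CPM per kb (Psmd14) to 5.20 CPM per kb (Psmd11), and in cold animals from 1.89 (Psmd9) to 9.03 (Psmb1). Psmb3 went from 2.04 to 7.58 CPM per kb and Psmc1 from 2.69 to 7.68, so that both passed Psmd11, which stood at 5.43 in the cold. The median over the 20 was 2.77 CPM per kb in SA, 2.52 in IBA, 3.49 in Ent, 4.92 in ET and 4.48 in LT. All single-gene units had medians between 2.02 and 2.12 in every state. The spread among members widened as well. The SD of the log2 level per kb was 0.50 in SA, 0.49 in IBA, 0.53 in Ent, 0.71 in ET and 0.78 in LT. In the core particle the SD went from 0.39 in SA to 0.87 in LT, and in the regulatory particle from 0.55 to 0.57, as a description without a test. The SD over all single-gene units is not given here, so the widening is not read as particular to the members. The fold change in cold against warm had a Spearman correlation of -0.18 with unit length and of 0.03 with the warm level per kb over the 20 members, which share all libraries.

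**Figure D4:**
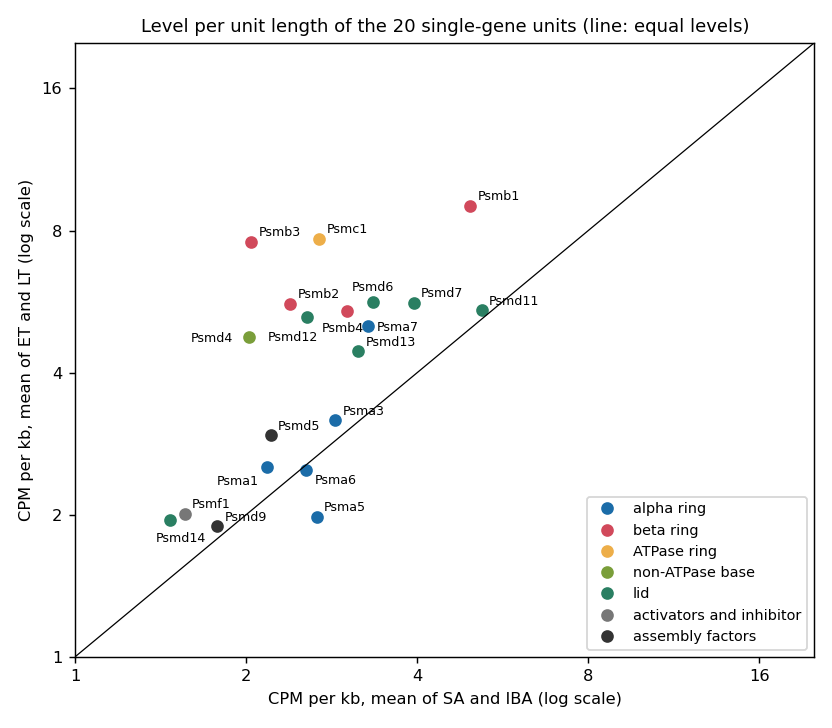
Mean level in CPM per kb of unit length in cold animals (vertical axis, log scale) against warm animals (horizontal axis, log scale) for the 20 single-gene units, coloured by role, with the line of equal levels. Psmb3 and Psmc1 are farthest above the line, and Psma5 is the unit clearly beneath it (2.66 CPM per kb in warm, 1.98 in cold).

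Gene bodies in this table had been extended where polymerase ran past the annotated end, with the extending segments merged over all states. A unit can therefore include sequence downstream of its gene that polymerase reached in only some states. Which members were extended was not examined, and the part of such extension in their cold counts was not tested. The unit upstream on the same strand was examined for the 7 called members. Psmb3 lies 9.01 kb behind Cisd3:Mllt6, whose log2 fold change in cold against warm was 0.04 (edgeR, adjusted p = 0.73), and Psmd4 lies 9.33 kb behind Pip5k1a, at 0.13 (edgeR, adjusted p = 0.30). Neither upstream unit was called. The paper shows genes raised late in torpor behind active upstream genes that were not themselves differentially transcribed. For the other 5 the nearest upstream unit of the table on the same strand was between 232 kb (Psmb1) and 2165 kb (Psmd6) away. Genes without a unit in the table were not looked for in these gaps. Whether polymerase ran on into the members from upstream was not tested.

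Merged units held 16 further proteasome genes and a Psma6-like copy. Among the 5 states, 5 of the 17 were called, beside 22.8% of all 1619 merged units. In cold against warm 5 were called higher, beside 19.6%, and 2 lower, beside 14.5%, and the median log2 fold change was 0.49 (0.01 over all merged units).

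The 5 higher units hold a pair of regulatory particle genes, a pair of core particle genes and an assembly factor. Csf3:Psmd3, with a lid subunit, had 88.6 to 100 CPM in warm libraries, 124, 145 and 154 in Ent, 182, 183 and 173 in ET, and 201 and 211 in LT. It rose without overlap of warm, Ent and cold libraries, at a log2 fold change of 1.05 (edgeR, adjusted p = 5.2e-07). LOC110597583:Psmc2, with an ATPase, had 63.3 to 79.3 CPM in warm and 124 to 170 in cold libraries, at 0.98 (edgeR, adjusted p = 3.2e-06). CUNH14orf93:PSMB5:Psmb5, whose last name is a catalytic beta subunit, was at 0.73 (edgeR, adjusted p = 1.9e-04), with 60.2 to 93.2 CPM and 109 to 143 CPM. CUNH7orf25:Psma2, with an alpha subunit, was at 0.68 (edgeR, adjusted p = 1.6e-05), with 74.3 to 81.5 CPM and 117 to 134 CPM. Psmg1:Brwd1, with a chaperone of the alpha ring, was at 0.49 (edgeR, adjusted p = 8.5e-04). Its neighbour Brwd1 shares its counts, as do the other genes named here.

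The 2 lower units include inducible proteasome genes. Emc9:Psme2 holds Psme2, a subunit of the interferon-inducible activator cap. It had 22.2, 38.5 and 29.1 CPM in SA, 22.2, 26.3 and 22.5 in IBA, 16.8, 23.6 and 13.2 in Ent, 10.3, 12.2 and 10.7 in ET, and 8.47 and 7.22 in LT. Cold libraries lay beneath every warm and Ent library, and the level fell by 1.51 on the log2 scale (edgeR, adjusted p = 2.2e-05). Slc12a4:Lcat:Psmb10 holds Psmb10, an inducible catalytic subunit, together with Lcat, a plasma enzyme of cholesterol transport made by hepatocytes. It had 122, 166 and 136 CPM in SA, 151, 180 and 170 in IBA, 131, 143 and 88.1 in Ent, 71.6, 57.2 and 81.6 in ET, and 73.0 and 82.5 in LT. The level fell by 1.06 on the log2 scale (edgeR, adjusted p = 4.7e-05), and cold and warm libraries did not overlap. Which gene of a unit carried its change was not measured. Psme1, the partner of Psme2 in the cap, belongs to a unit of 6 names (Pck2:RPL5_gene21166:Dcaf11:G27644:Fitm1:Psme1) with a log2 fold change of -0.18 (edgeR, adjusted p = 0.30).

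The remaining merged units were not called in cold against warm. Psma4:Hykk (0.73), G23215:Psmb7 (0.54), Aoc3:Psme3 (0.52) and Psmc3:G21021 (0.51) had the higher log2 fold changes and passed 0.05. PSMA6_like_ENSSTOG00000030734:Numa1:Lamtor1:Anapc15 was at -0.27 and passed 0.05 too. Styx:Psmc6 (0.13), Fam131a:SNORD66:Eif4g1:Psmd2 (0.03), CUNH2orf72:Psmd1 (-0.13) and Psmc5:Ddx42 (-0.13) did not. Of 48 listed proteasome symbols, 12 had no unit and were not analysed here, namely Psma8, Psmb6, Psmb8, Psmb9, Psmb11, Psmc4, Psmd8, Psmd10, Psme4, Psmg2, Psmg3 and Psmg4.

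Genes that work with the proteasome but fall outside the naming rule were mixed. Of 18 single-gene units of such partners, 4 were called higher in cold against warm and 1 lower, beside 18.3% and 18.7% of all single-gene units, and the median log2 fold change was 0.13. The share called higher was thus near the background. Sem1, a small lid subunit, went from 48.4 to 88.8 CPM (log2 fold change 0.87, edgeR adjusted p = 3.1e-05). Txnl1, a thioredoxin bound to the regulatory particle, went from 124 to 303 CPM (1.30, edgeR adjusted p = 6.6e-07). Akirin2, which takes part in nuclear import of proteasomes, had 0.79 (edgeR, adjusted p = 4.9e-04), and Nub1, which delivers substrates, had 0.46 (edgeR, adjusted p = 6.3e-04). Paaf1, a chaperone of the base, was the lower one, from 62.8 to 29.8 CPM (-1.07, edgeR adjusted p = 1.6e-04). Among the 5 states 3 of the 18 were called, beneath the 26.4% of all single-gene units. They were Sem1, Txnl1 and Rps27a, a ubiquitin-ribosomal fusion gene (edgeR, adjusted p = 3.0e-05). Nfe2l1, a transcription factor that drives proteasome genes when proteasomes are inhibited, had 172 CPM in warm and 136 in cold animals (log2 fold change -0.34, edgeR adjusted p = 0.0077) and is named here after its values were seen.

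Related complexes did not move as a block. The COP9 signalosome resembles the lid and removes NEDD8 from ubiquitin ligases. Of its 7 single-gene units, 3 were called higher and 2 lower in cold against warm, beside the same 18.3% and 18.7%. Among the 5 states 5 were called, beside 26.4% of all single-gene units. Cops8 (log2 fold change 1.07), Cops3 (0.85) and Cops2 (0.64) were higher, while Cops7a (-1.25) and Cops5 (-2.20), the catalytic subunit, were lower, the latter from 40.8 to 8.93 CPM, with edgeR adjusted p from 2.6e-06 to 7.8e-05. Of 4 single-gene units of the CCT chaperonin, a folding complex, Cct4 was called higher (0.80, edgeR adjusted p = 3.7e-05) and was also called among the 5 states and from Ent to ET, and 0 were called lower, a count too small to set beside the shares of all units. These lists were read by their counts and medians only, and no test set them against the proteasome.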

How the data were processed

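GRO-seq libraries of 14 livers were analysed. The authors trimmed reads with cutadapt, aligned them with BWA to HiC_Itri_2, extended gene annotations with segments of the reads themselves (fstitch, called on pooled reads of each state), merged overlapping genes, removed the first 500 nt and counted unique reads with featureCounts; they deposited raw counts per unit and library, without normalization, and unit lengths. Columns were matched to animals by the animal number in the labels, and seasons were taken from the study's animal metadata. Animals, not aliquots, are the replicates. Libraries were prepared in parallel. Versions of the upstream tools are not given in the sources used here.

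All 6324 units were fitted in edgeR 4.0.16 (R 4.3.3) with TMM factors and a quasi-likelihood model of 5 states, without a filter on low counts. Benjamini-Hochberg adjustment ran over the whole table, and units were called at an adjusted p of 0.001. Intervals are 95% intervals of the fitted coefficient by a normal approximation, with an SE taken from the coefficient and its F statistic. They are somewhat narrower than the F test implies, and calls rest on the adjusted p alone. CPM are TMM-scaled counts on a library size of 1000000. Every single-gene member was accounted for, with all library values for those called and for the lowest and highest fold. Members and lists were chosen with earlier results of these data known. The code was tested on simulated counts. As alternatives, fits used limma-voom (limma 3.58.1), DESeq2 1.42.0, adjusted deviances, other scalings, filters, thresholds, a replicate block, season, and each library left out. Plots used matplotlib 3.10.9. No genome of the files' build was used, and gene names were looked up in RefSeq (another assembly, names only).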

Additional observations from a re-analysis of the deposited data

How the results depend on the processing

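Members called in cold against warm numbered 7 as reported (37.0% of all single-gene units called), 13 with library sizes from uniquely mapped reads (38.4%), 12 with DESeq2 (48.9%) and 15 at an adjusted p of 0.05 (65.1%), so that with DESeq2 and at 0.05 the background grew too. Leaving out 1 library gave 7 to 10. Among the 5 states 8 were called (26.4%), 13 with DESeq2 (51.4%) and 15 at 0.05 (63.3%), and 6 to 8 without 1 library. From IBA to Ent the count of 0 became 3 with DESeq2 (7.00% of all single-gene units) and 8 at 0.05 (785 of 4705). From Ent to ET it became 1 with uniquely mapped reads (3.89%), 7 with DESeq2 (15.4%) and 10 at 0.05 (1376 of 4705). From ET to LT it became 1 with DESeq2 (0.702%). These 3 counts, and that from SA to IBA, were 0 to 0 without 1 library. From IBA to LT the members called at 0.05 were all higher, beside 1134 higher and 1252 lower of all 4705 single-gene units. The count of 6 (17.6%) became 11 at 0.05, near only the share of single-gene units called in either direction (2386 of 4705). Without 1 library it was 3 to 6 (3 without LT replicate 1). Shares of all units are not given beside the counts without 1 library. The cause of these differences was not tested.

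The core median of 0.62 became 0.84 with uniquely mapped reads, 0.10 with LT alone as cold and 0.23 with LT alone and season as an additive term (both chosen after seeing the data), and 0.50 to 0.72 without 1 library. The regulatory median of 0.64 became 0.86 with uniquely mapped reads and 0.56 to 0.72 without 1 library. Signs turned only in members near 0. Psma6 went from -0.04 to 0.18 with uniquely mapped reads, 0.14 with ET alone as cold and ranged from -0.08 to 0.00 without 1 library (0.00 without ET replicate 1). Psmd9 went from 0.07 to -0.02 without IBA replicate 2, -0.04 without LT replicate 3 (-0.04 to 0.17 over all libraries left out) and -0.13 with LT alone. With LT alone, Psma1 became -0.17 and Psma3 -0.04. Of 520 alternative values of single members, 487 kept direction and side of the threshold, 22 became called, 3 were no longer called and 8 turned sign. Psmb3, Psmc1, Psmd4, Psmb2 and Psmd12 stayed called under all 26 alternatives each; Psmb1 and Psmd6 were not called with LT alone and season (adjusted p = 0.0035 and 0.022 by edgeR), nor Psmd6 with LT alone.

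With the replicate block 7 members were called in cold against warm, while 747 of all single-gene units were called higher and 780 lower. Among the 5 states 6 members were called, from IBA to LT 6 and in the sequential steps 0. The share of all units is not given beside these last counts. The core median was 0.63. Replicate numbers name separate animals, and libraries with the same number did not deviate together (correlation of deviations -0.27 to 0.26, median 0.04, over 26 pairs). Season could not be fitted apart from ET. Counts were low in Psmb4 (42 to 275 per library), Psma1 (72 to 245) and Psmd9 (98 to 250).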
